A study of Homo sapiens with 12 samples.

Results

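The data described here are RNA-seq counts of 10 genes of bone morphogenetic protein (BMP) signalling in H1 human embryonic stem cells. They are the ligands BMP2, BMP4 and BMP7, the target genes ID1, ID2, ID3 and ID4, and the feedback inhibitors BAMBI, SMAD6 and SMAD7. The genes were taken by name from a deposited table of 27130 genes, and all 10 were present and passed the filter on low counts, as 1 set among 15437 genes tested. H1 (WA01) is an established line that self-renews in culture and can form derivatives of all germ layers. The 12 libraries of poly(A) RNA formed 4 groups of 3: cells with a homozygous knockout of ZNF263 (KO), knockout cells that also overexpressed ZIC2 (KO with ZIC2), cells that overexpressed ZNF263 on a background with no stated knockout (OE), and wild type cells (WT). The library names of the KO and WT groups carry the tag vec. Those of both knockout groups share a further tag, which no WT or OE library name has and the labels do not explain. What that tag stands for cannot be told apart from the knockout. ZNF263 and ZIC2 are zinc finger transcription factors, and the study asked how ZNF263 acts in pluripotency with ZIC2 as a cofactor. The labels do not describe the edit, the promoter behind the overexpressed genes or the number of knockout clones. They also do not say if replicates are separate cultures. The p-values here set differences between groups against the spread between these libraries only, and that spread may be technical.

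BMPs are secreted ligands that bind paired receptor kinases, which phosphorylate SMAD1, SMAD5 and SMAD9; these join SMAD4 and act on genes in the nucleus. The ID genes are among the most direct targets, and their proteins lack a DNA-binding region and hold basic helix-loop-helix factors such as TCF3, TCF4 and TCF12 away from DNA. BAMBI (a pseudoreceptor without a kinase domain), SMAD6 and SMAD7 are induced by the pathway and restrain it. In cultured human embryonic stem cells, added BMP4 is known to drive exit from pluripotency towards mesoderm and extraembryonic fates.

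Libraries held 17175183 to 21804410 counts, except KO replicate 1 with 43464609, and the 10 genes together held 0.0282 to 0.0383% of them. ZNF263 was at 31.1 ± 0.128 CPM (counts scaled to the library's effective size) in KO, at 32.3 ± 3.15 CPM in KO with ZIC2, at 239.6 ± 18.0 CPM in OE and at 39.2 ± 1.35 CPM in WT (SD, n = 3 each). It was lower in KO than in WT (log2 fold change -0.33, SE 0.07, adjusted p = 0.000302) but not absent. ZIC2 was at 156 ± 3.81 CPM in KO and 2040.5 ± 175 CPM in KO with ZIC2 (SD, n = 3 each). In OE it was at 212 ± 4.67 CPM and in WT at 209 ± 3.74 CPM. It was lower in KO than in WT (log2 fold change -0.42, SE 0.05, adjusted p = 3.39e-07). ZIC2 was higher in KO with ZIC2 than in KO by 3.71 on the log2 scale, which put it above WT and not back at the WT level. Counts of a transcript do not show whether an edited gene still makes protein. All 12 pluripotent stem cell markers examined, among them POU5F1, SOX2 and NANOG, averaged at least 1 CPM in every group. In KO against WT, 5 of the 12 were higher and 3 lower at an adjusted p under 0.05 (66.7%, against 38.6% of all tested genes). L1TD1 and LIN28B fell by 0.27 (SE 0.03) and 0.29 (SE 0.04) on the log2 scale, and LIN28A rose by 0.20 (SE 0.03). In KO with ZIC2 against KO, none was higher (4.99% of all genes) and 3 were lower (3.35%): NANOG, LIN28A and DPPA4. In these bulk samples, fewer cells that express a gene and less RNA per cell cannot be told apart.

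The regulatory sequence just before the start of the genes is shown for the ligand with the largest change, the ID gene with the smallest adjusted p, and the inhibitors whose windows held a SMAD motif. The windows are the 250 bases before the start given by RefSeq on GRCh38.p14, a later build than the hg19 of the counts, written 5′ to 3′ on the gene's strand. Capitals mark the letters GGCGCC, a GC-rich site of BMP-activated SMADs, or GTCTAGAC, a palindromic SMAD box. For BAMBI, the 71 bases outside annotated exons are printed.
BMP4 (chr14:53955051-53955300, minus strand): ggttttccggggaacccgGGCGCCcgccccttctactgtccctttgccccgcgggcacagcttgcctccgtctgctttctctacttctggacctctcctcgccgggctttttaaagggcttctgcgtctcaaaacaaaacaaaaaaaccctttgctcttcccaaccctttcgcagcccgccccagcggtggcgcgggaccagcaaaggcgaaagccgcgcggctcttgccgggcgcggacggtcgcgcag
ID1 (chr20:31605039-31605288, plus strand): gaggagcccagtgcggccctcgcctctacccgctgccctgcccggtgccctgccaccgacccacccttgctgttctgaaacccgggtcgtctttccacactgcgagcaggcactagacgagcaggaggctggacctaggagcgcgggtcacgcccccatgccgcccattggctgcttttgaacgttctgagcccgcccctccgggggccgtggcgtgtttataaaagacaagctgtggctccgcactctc
SMAD6 (chr15:66701986-66702235, plus strand): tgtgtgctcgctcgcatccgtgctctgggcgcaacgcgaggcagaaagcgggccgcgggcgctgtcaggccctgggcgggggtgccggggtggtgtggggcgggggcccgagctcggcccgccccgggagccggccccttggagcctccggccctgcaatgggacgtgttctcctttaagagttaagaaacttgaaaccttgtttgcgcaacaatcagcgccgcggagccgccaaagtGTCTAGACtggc
BAMBI (chr10:28677271-28677341, plus strand): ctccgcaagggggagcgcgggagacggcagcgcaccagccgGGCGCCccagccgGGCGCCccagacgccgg

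Of the 10 genes, 8 had a promoter entry, with 12 windows in all. GGCGCC, its own reverse complement, occurred in 16.4% of 35116 windows of the same length, and in 1 of 3 BMP4 windows and the BAMBI window here. The BAMBI window held it 3 times, 2 of them in the stretch shown. GTCTAGAC, also its own reverse complement, occurred in 0.182% of all windows and once in SMAD6, where it runs into the last 8 bases of the window, which are annotated as exon. The G-rich repeat GGAGGAGG, of the kind bound by ZNF263, was searched on both strands and occurred in 9.45% of windows, and once in another BMP4 window. The letters CAGCAGG, of the kind bound by ZIC proteins, occurred in 8.48% of windows on either strand and in none of the 12. The ID1 window held none of these motifs. These matches are letters in a window and show no binding.

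Most of the 10 genes were higher in knockout cells than in wild type, 4 of them were lower with ZIC2 than without it, and none was called under ZNF263 overexpression. In KO against WT, 9 of 10 were called at an adjusted p under 0.05 in edgeR's quasi-likelihood test, against 38.6% of all 15437 tested genes. Of these 8 were higher, with 3095 of all genes, and 1 was lower, with 18.5% of all genes. The median log2 fold change was 0.48 for the 10 genes, against -0.01 for all tested genes. Between KO with ZIC2 and KO, 4 were lower (3.35% of all genes) and none was higher (4.99%), with a median of -0.19, against -0.001 for all. Against WT, KO with ZIC2 had 8 higher (20.3% of all genes) and 1 lower (17.3%), with a median of 0.30, against 0.004 for all. There DESeq2 called 5 higher and none lower, with 2510 and 2316 of all genes. After correction for GC content and length 3 were higher and 1 lower, with 2286 and 2172 of all genes. In OE against WT, none of 10 was called by edgeR or DESeq2 (0.317% of genes were higher and 0.447% lower by edgeR). There 1 of the 10, ID1, had an unadjusted p under 0.05, as did 1630 of all 15437 tested genes. The 3 replicates of one group lay apart from those of the other for 9 of 10 genes in KO against WT (46.7% of all genes), for 6 in KO with ZIC2 against KO (21.8%), for 8 in KO with ZIC2 against WT (47.3%) and for 1 in OE against WT (19.4%). The comparisons share libraries and are therefore not independent of each other. The 10 genes were also chosen with earlier results of these data known. The shares of all genes are therefore given for scale and are no independent support.

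**Figure D1:**
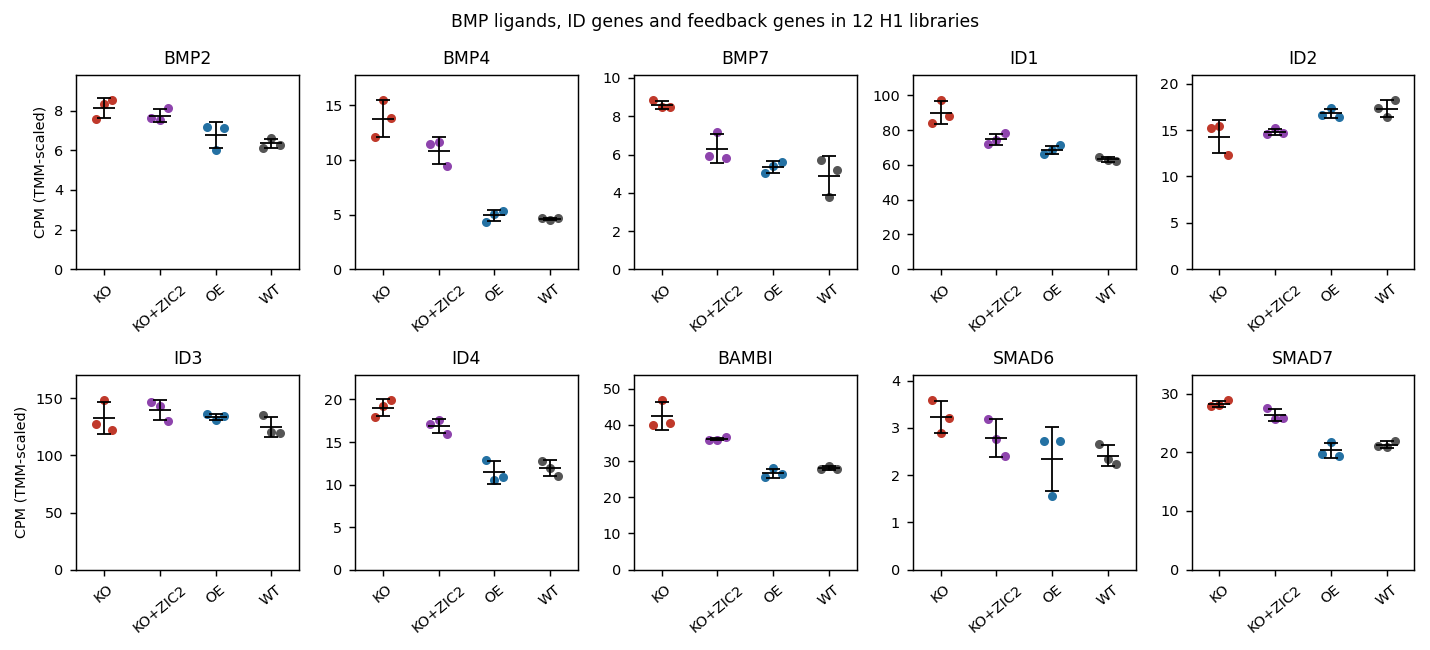
Each panel plots one gene's CPM (y axis, from 0) in the 12 libraries, as points by group from left to right KO, KO with ZIC2, OE and WT; the bars give mean and SD of 3 libraries. BMP4 lies at 12.1 to 15.5 CPM in KO and 4.53 to 4.68 CPM in WT, while the ID3 values of the groups overlap.

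Of the ligands, BMP4 (chromosome 14, 54416455 to 54423580, minus strand, hg19) had 12.1, 15.5 and 13.8 CPM in KO, 11.4, 11.6 and 9.43 CPM in KO with ZIC2, 4.36, 5.04 and 5.36 CPM in OE, and 4.68, 4.53 and 4.67 CPM in WT. All 6 knockout libraries were thus well above the other 6, and those with ZIC2 lay below those without. The fold was 2.92 for KO over WT (log2 fold change 1.55, SE 0.12, adjusted p = 6.4e-10) and 2.35 for KO with ZIC2 over WT (log2 fold change 1.23, SE 0.12, adjusted p = 8.66e-08). The difference between KO with ZIC2 and KO was -0.32 (SE 0.10, adjusted p = 0.0490), close to the threshold: DESeq2 did not call it (adjusted p = 0.126), and the call was lost when any single library except KO replicate 1 or WT replicate 1 was left out (adjusted p up to 0.239). OE and WT overlapped (0.10, 95% interval -0.20 to 0.39).

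BMP7 (chromosome 20, 55743809 to 55841707, minus strand), a ligand that often pairs with BMP2 or BMP4, had 8.85, 8.48 and 8.49 CPM in KO. It had 5.93, 7.18 and 5.80 CPM in KO with ZIC2, 5.02, 5.38 and 5.63 CPM in OE, and 5.72, 3.79 and 5.19 CPM in WT. The KO libraries were the highest without overlap, and WT replicate 2 was the lowest library. BMP7 rose in KO against WT by 0.82 (SE 0.12, adjusted p = 1.22e-05) and fell in KO with ZIC2 against KO by 0.46 (SE 0.11, adjusted p = 0.0122). That fall was not called without KO with ZIC2 replicate 1 (adjusted p = 0.0859) or 3 (0.0667). The remaining difference of KO with ZIC2 from WT (0.36, SE 0.13, adjusted p = 0.0351) was 0.20 without WT replicate 2 (adjusted p = 0.255), and was also not called by DESeq2 (0.0898), after the GC correction (0.175) or without WT replicate 3 or KO with ZIC2 replicate 2. The antisense gene BMP7-AS1 lies within the bounds of BMP7 and shares no exon bases with it in the deposited annotation.

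BMP2 (chromosome 20, 6748745 to 6760925, plus strand), the closest relative of BMP4, moved less. It had 7.55, 8.33 and 8.53 CPM in KO, 7.60, 7.51 and 8.14 CPM in KO with ZIC2, 7.15, 5.99 and 7.13 CPM in OE, and 6.12, 6.61 and 6.29 CPM in WT. All knockout libraries were above all others, and the 2 knockout groups overlapped. BMP2 rose in KO by 0.34 (SE 0.10, adjusted p = 0.00850); with ZIC2 the difference from WT was 0.29 (SE 0.11, adjusted p = 0.0359), a call that was lost in DESeq2 (adjusted p = 0.136), after the GC correction (0.122) and when any single one of the 6 libraries compared was left out (up to 0.107). Per length, as CPM divided by gene length in kilobases (RPKM), BMP4 and BMP2 stood at 7.01 ± 0.870 and 2.57 ± 0.164 RPKM in KO, at 5.51 ± 0.624 and 2.45 ± 0.108 RPKM in KO with ZIC2, and at 2.35 ± 0.0415 and 2.00 ± 0.0786 RPKM in WT (SD, n = 3). The ratio of BMP4 to BMP2 was 2.57, 2.99 and 2.60 in KO, 2.42, 2.50 and 1.86 in KO with ZIC2, 0.983, 1.36 and 1.21 in OE, and 1.23, 1.10 and 1.19 in WT. The ratio was higher in each of the 6 knockout libraries than in any of the other 6.

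**Figure D2:**
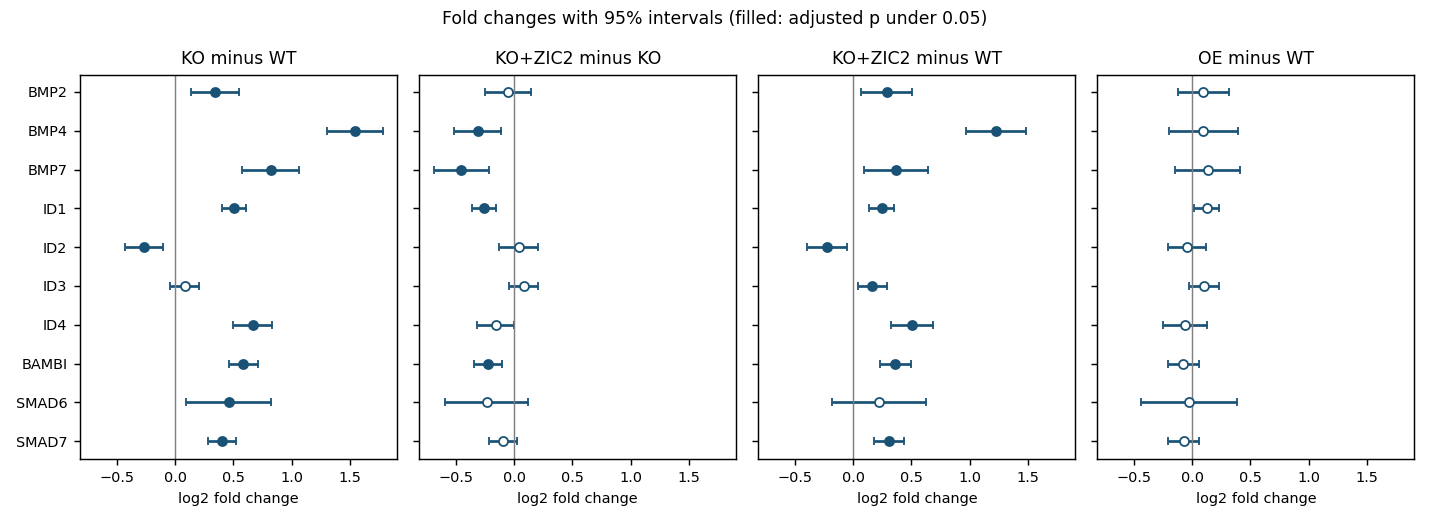
Log2 fold changes (x axis) of the 10 genes (y axis) in 4 comparisons, with 95% intervals from the edgeR fit; filled points have an adjusted p under 0.05. In KO minus WT 9 points are filled, with BMP4 the farthest right at 1.55, and in OE minus WT none is filled.

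The ID genes did not move together. ID3 was the most abundant per length in every group, with 107 ± 11.2 RPKM in KO, 113 ± 7.06 RPKM in KO with ZIC2, 108 ± 2.14 RPKM in OE and 101 ± 7.12 RPKM in WT (SD, n = 3). ID1 came next, with 73.0 ± 5.43, 60.7 ± 2.59, 55.7 ± 1.92 and 51.2 ± 1.11 RPKM in the same order of groups, followed by ID2 and ID4. In KO against WT, ID1 and ID4 rose, ID2 fell and ID3 was not called.

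ID1 (chromosome 20, 30193086 to 30194317, plus strand) had 84.2, 97.3 and 88.3 CPM in KO, 71.8, 74.3 and 78.1 CPM in KO with ZIC2, 66.4, 68.5 and 71.1 CPM in OE, and 64.7, 62.5 and 62.2 CPM in WT. The 4 groups did not overlap. ID1 rose 1.42-fold in KO over WT (log2 fold change 0.50, 95% interval 0.40 to 0.61, adjusted p = 8.18e-08) and fell in KO with ZIC2 against KO by 0.26 (SE 0.05, adjusted p = 0.00120). That fall was called whichever single library was left out (adjusted p up to 0.0172). KO with ZIC2 was above WT by 0.24 (SE 0.05, adjusted p = 0.000931), but by 0.02 (adjusted p = 0.772) after correction for GC content and length. The OE libraries were all above WT too, by 0.12 (SE 0.05), with an unadjusted p = 0.0301 and an adjusted p = 0.406.

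ID4 (chromosome 6, 19837601 to 19842431, plus strand), which differs from the other ID genes in being described also as an antagonist of them, had 17.9, 19.2 and 19.9 CPM in KO. It had 17.1, 17.6 and 15.9 CPM in KO with ZIC2, 12.9, 10.5 and 10.8 CPM in OE, and 12.8, 11.999 and 11.003 CPM in WT. The 6 knockout libraries were above all others. ID4 rose in KO by 0.67 (SE 0.08, adjusted p = 1.28e-06) and stood 0.50 above WT in KO with ZIC2 (SE 0.09, adjusted p = 8.94e-05). The step from KO to KO with ZIC2 was -0.16 (95% interval -0.32 to -0.001) and was not called (adjusted p = 0.247), although the replicates lay apart.

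ID2 (chromosome 2, 8822113 to 8824583, plus strand) was the only one of the 10 genes lower in KO. It had 15.2, 15.4 and 12.3 CPM in KO, 14.6, 15.2 and 14.6 CPM in KO with ZIC2, 16.6, 17.4 and 16.4 CPM in OE, and 17.3, 16.4 and 18.2 CPM in WT. Every knockout library was below every other library. ID2 fell in KO by 0.27 (SE 0.08, adjusted p = 0.00888), with an adjusted p = 0.0588 without KO replicate 3 and 0.0545 without WT replicate 3. It was 0.23 below WT with ZIC2 (adjusted p = 0.0320), which was not called by DESeq2 (adjusted p = 0.0707) or without KO with ZIC2 replicate 1 or 3 or WT replicate 1 or 3 (adjusted p up to 0.121).

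ID3 (chromosome 1, 23884421 to 23886285, minus strand) had 128, 148 and 122 CPM in KO, 147, 143 and 130 CPM in KO with ZIC2, 136, 131 and 135 CPM in OE, and 135, 121 and 120 CPM in WT. All neighbouring groups overlapped, and KO replicate 2 was the highest library. The KO difference from WT was 0.08 (95% interval -0.04 to 0.21, adjusted p = 0.296). KO with ZIC2 was called above WT (0.16, SE 0.06, adjusted p = 0.0379) with replicates that overlapped. That call was lost in DESeq2 (adjusted p = 0.0623) and without any of KO with ZIC2 replicates 1 and 2, WT replicates 2 and 3 and the 3 OE libraries, which enter through the shared spread (adjusted p up to 0.195). Without KO replicate 2, ID3 was called higher in KO with ZIC2 than in KO (0.16, adjusted p = 0.0231).

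In the summed ID transcripts, the shares of ID1 and ID3 set KO apart, while those of the other groups overlapped. The shares were not tested. The summed ID level was 187, 215 and 184 RPKM in KO, 192, 192 and 183 RPKM in KO with ZIC2, 180, 177 and 181 RPKM in OE, and 178, 163 and 163 RPKM in WT. ID1 supplied 36.5 to 38.9% of that sum in KO, 30.4 to 34.6% in KO with ZIC2, 30.0 to 31.8% in OE and 29.5 to 31.1% in WT. ID2 supplied 4.90 to 5.96%, 5.58 to 5.86%, 6.65 to 7.19% and 7.15 to 8.19% in the same order. For ID3 the shares were 53.4 to 55.7%, 57.3 to 61.7%, 59.9 to 61.3% and 59.2 to 61.5%. For ID4 they were 2.31 to 2.79%, 2.24 to 2.36%, 1.53 to 1.86% and 1.74 to 1.90%. The ratio of ID1 to ID3 was 0.662, 0.659 and 0.728 in KO and 0.481, 0.522 and 0.523 in WT, with KO with ZIC2 at 0.492, 0.522 and 0.604. The KO ratios were above those of all other libraries, and the KO with ZIC2 and WT ratios overlapped.

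**Figure D3:**
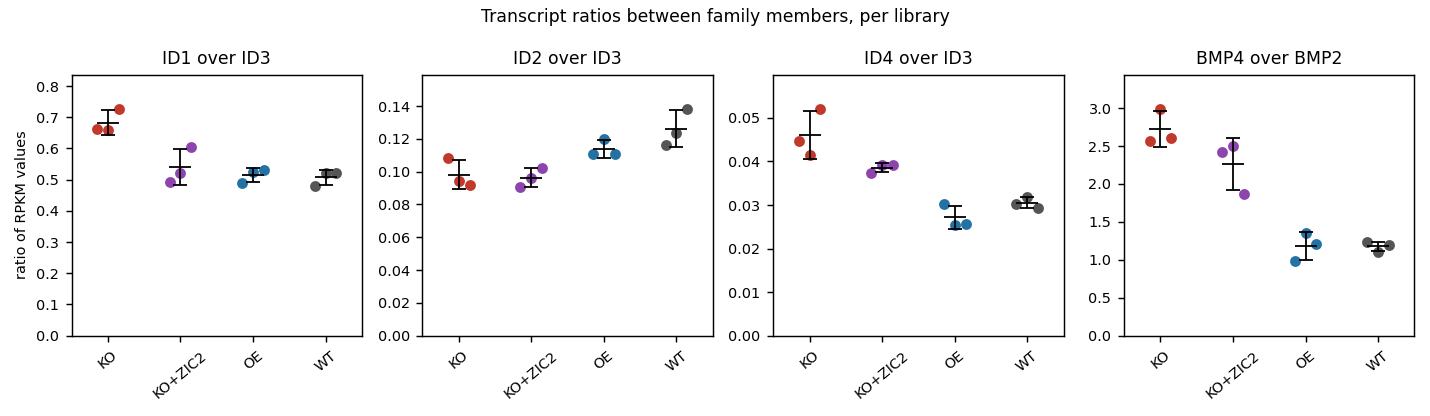
Ratios of RPKM values between pairs of genes (y axis, from 0) in the 12 libraries, as points by group from left to right KO, KO with ZIC2, OE and WT, with mean and SD of 3 libraries. ID1 over ID3 averages 0.683 in KO and 0.508 in WT; BMP4 over BMP2 averages 2.72 in KO and 1.18 in WT.

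BAMBI and SMAD7 were higher than in WT in both knockout groups, and SMAD6 was called in KO only, close to the threshold. BAMBI (chromosome 10, 28966424 to 28971868, plus strand) had 39.9, 46.8 and 40.5 CPM in KO, 35.8, 35.9 and 36.5 CPM in KO with ZIC2, 25.5, 28.0 and 26.3 CPM in OE, and 27.8, 28.6 and 27.8 CPM in WT. The knockout groups stood apart from each other and above OE and WT, which overlapped. BAMBI was higher in KO than in WT by 0.58 (SE 0.06, adjusted p = 9.83e-08) and fell in KO with ZIC2 against KO by 0.22 (SE 0.06, adjusted p = 0.0165). The fall was not called when only these 2 groups were fitted (adjusted p = 0.0604), or without KO replicate 2 (0.0731) or KO with ZIC2 replicate 1 (0.0741) or 2 (0.0534). KO with ZIC2 was 0.36 above WT (SE 0.06, adjusted p = 0.000102).

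SMAD7 (chromosome 18, 46446223 to 46477081, minus strand), an inhibitory SMAD that acts on both the BMP and the NODAL and activin branches, had 28.0, 28.0 and 28.9 CPM in KO, 27.5, 25.6 and 25.9 CPM in KO with ZIC2, 19.7, 21.7 and 19.4 CPM in OE, and 21.1, 20.9 and 21.9 CPM in WT. The 6 knockout libraries were above the other 6. SMAD7 rose in KO by 0.40 (SE 0.06, adjusted p = 1.14e-05) and stood 0.30 above WT with ZIC2 (SE 0.06, adjusted p = 0.000447), a call lost after the GC correction (adjusted p = 0.0527). The step between the knockout groups was -0.10 (95% interval -0.22 to 0.02).

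SMAD6 (chromosome 15, 66994674 to 67074337, plus strand), an inhibitory SMAD that acts mainly on the BMP branch, was the least abundant of the 10 genes, with 137 to 278 counts per group. It had 3.59, 2.90 and 3.22 CPM in KO, 3.19, 2.76 and 2.40 CPM in KO with ZIC2, 2.73, 1.55 and 2.72 CPM in OE, and 2.66, 2.35 and 2.24 CPM in WT. KO and WT lay apart, while KO with ZIC2 overlapped with KO, OE and WT. The difference of KO from WT was 0.46 (SE 0.18, adjusted p = 0.0450). It was not called with the replicate number as a block (adjusted p = 0.0533), by DESeq2 (0.145), after the GC correction (0.150), or without KO replicate 1 or 3, WT replicate 2 or 3, or KO with ZIC2 replicate 2 (0.0511 to 0.201).

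The fold changes of all genes in KO against WT followed the GC content of the transcripts, and most of the 10 genes are GC-rich. Among 14696 tested genes with a GC value, the median log2 fold change in KO was -0.15 in the fifth with the lowest and 0.16 in the fifth with the highest GC content. ID1, SMAD6 and SMAD7 have transcripts of 58.6, 58.9 and 58.7% GC, above 80.8, 81.9 and 81.2% of tested genes, and ID4 with 47.0% is above 44.2%. After correction of each library for GC content and length, 7 of the 10 genes were higher and 2 lower in KO than in WT, with 2416 and 2178 of all 15437 tested genes. BMP4 (1.43), BMP7 (0.74), ID4 (0.69), BAMBI (0.49), SMAD7 (0.29) and BMP2 (0.30) were called as before. ID1 was 0.28 higher (adjusted p = 3.13e-06), against 0.50 uncorrected, and ID2 was 0.41 lower (adjusted p = 7.20e-05), against 0.27 uncorrected. ID3 was called lower by 0.13 (adjusted p = 0.0113), the reverse of its uncorrected direction, and SMAD6 was not called (0.34, adjusted p = 0.150). After the same correction, KO with ZIC2 was called against WT for 4 of the 10 genes: BMP4, ID4 and BAMBI higher and ID2 lower. Of all 15437 tested genes, 4458 were called there, 2286 higher and 2172 lower. The difference of ID1 there was 0.02 (adjusted p = 0.772), with SMAD7 at 0.15 (0.0527), BMP7 at 0.24 (0.175) and BMP2 at 0.22 (0.122). The step from KO to KO with ZIC2 had medians of -0.001 in the low and -0.008 in the high GC class. The same 4 genes were called lower after correction, as were 1028 of all tested genes.

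**Figure D4:**
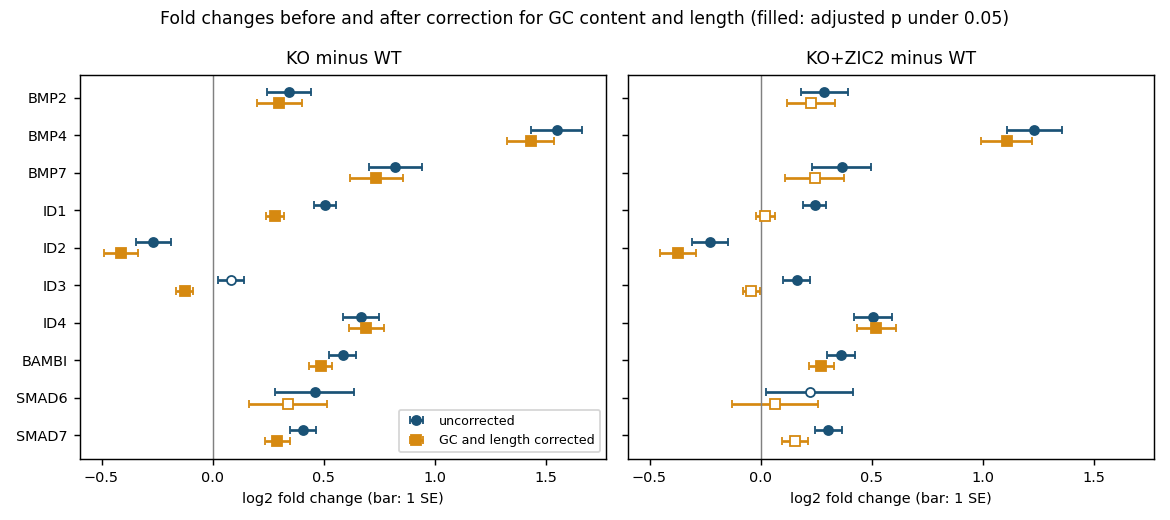
Log2 fold changes (x axis, bars of 1 SE) of the 10 genes (y axis) in KO minus WT and KO with ZIC2 minus WT, uncorrected (circles) and after correction for GC content and length (squares); filled symbols have an adjusted p under 0.05. In KO with ZIC2 minus WT, ID1 is at 0.02 after and 0.24 before correction, and BMP4 at 1.11 after and 1.23 before.

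Beyond the 10 genes, 63 of 89 listed genes of the BMP pathway were tested, from lists chosen with earlier results of these data known. In KO against WT 17 were higher and 9 lower, 41.3% of them, close to the 38.6% of all tested genes called there. After the GC correction 19 were higher and 4 lower, with 2416 and 2178 of all 15437 tested genes. Receptors moved little: the type I receptor ACVR1 rose by 0.27 (SE 0.07), the type II receptor BMPR2 by 0.21 (SE 0.07) and the co-receptor RGMA by 0.20 (SE 0.05), 3 of 10 tested receptors, with none lower. The list's median was 0.01. Of the 4 SMAD effectors, SMAD5 fell by 0.33 (SE 0.05, adjusted p = 2.59e-05) and SMAD4 fell by 0.18 (SE 0.04, adjusted p = 0.00163), while SMAD1 and SMAD9 were not called. The ligand GDF3 rose by 0.45 (SE 0.09) and GDF11 fell by 0.17 (SE 0.07) among 8 other ligands. With ZIC2 and against KO, 2 of these 8 were higher (4.99% of all genes), BMP6 by 0.71 (SE 0.17) and GDF10 by 1.48 (SE 0.44). GDF3 was lower by 0.63 (SE 0.09), where 3.35% of all genes were lower. GDF10 stood on 17 counts in all KO libraries. The co-receptor ENG was the only 1 of the 10 tested receptors called there, higher by 0.57 (SE 0.14).

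Of 12 secreted antagonists, 3 were higher and 2 lower in KO, 41.7% called against 38.6% of all genes, with a median of 0.13. CER1, which binds BMPs and NODAL, had 25.1 ± 0.554 CPM in KO and 7.32 ± 0.600 CPM in WT, and GREM1, a BMP-binding antagonist, had 3.02 ± 0.534 CPM in KO and 1.70 ± 0.288 CPM in WT (SD, n = 3). The secreted glycoprotein gene FSTL1 rose by 0.16 (SE 0.03). With ZIC2, CER1 was lower than in KO by 0.69 (SE 0.08, adjusted p = 1.95e-06), whereas GREM1 was higher by 0.80 (SE 0.14, adjusted p = 0.000418) and FSTL1 higher by 0.18 (SE 0.03). Of 14 intracellular regulators, 4 rose and 2 fell in KO, 42.9% called against 38.6% of all genes; PMEPA1, a membrane protein that restrains SMAD signalling, rose by 0.50 (SE 0.05) and the ubiquitin ligases STUB1 and NEDD4L rose by 0.38 (SE 0.07) and 0.19 (SE 0.04). With ZIC2 and against KO, ZNF423, a zinc finger cofactor of BMP SMADs, was higher by 0.56 (SE 0.05), TOB1 was higher by 0.41 (SE 0.07) and the corepressor SKIL lower by 0.18 (SE 0.05).

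Of 24 other BMP targets, 12 passed the filter on low counts, and 5 of these were higher in KO and none lower, 41.7% called against 38.6% of all genes. GATA3 was at 1.04 ± 0.127 CPM in KO and 0.295 ± 0.0556 CPM in WT, TBX3 at 0.656 ± 0.0638 CPM in KO and 0.200 ± 0.165 CPM in WT, and HEY1 at 4.85 ± 0.611 CPM in KO and 3.34 ± 0.189 CPM in WT (SD, n = 3). These genes encode transcription factors, and GATA3 and TBX3 stood on 17 and 12 counts in all WT libraries. Between KO with ZIC2 and KO, 4 of these 12 were higher (4.99% of all genes) and none lower (3.35%), with a list median of -0.12. The changes named by the same rule there were others: SNAI2 was higher by 1.70 (SE 0.18), KLF10 by 0.47 (SE 0.07) and ZNF503 by 1.42 (SE 0.36). ZNF503 stood on 25 counts in all KO libraries and 45 in all KO with ZIC2 libraries. The partners of the ID proteins moved in both directions in KO: TCF3 rose by 0.19 (SE 0.03), TCF12 fell by 0.24 (SE 0.04) and TCF4 fell by 0.17 (SE 0.04). Over all 7 lists, 12 of the 63 tested genes were higher and 3 lower in KO with ZIC2 than in KO (23.8% called, where 4.99% of all genes were higher and 3.35% lower). There DESeq2 called 9, with 916 of all genes. After the GC correction 12 were higher and 7 lower, with 957 and 1028 of all genes. Against WT, 24 were higher and 10 lower with ZIC2 (54.0%, where 20.3% of all genes were higher and 17.3% lower). In OE against WT, 2 of the 63 were lower, CER1 and PMEPA1, and none was higher. That was 3.17% called, where 0.317% of all genes were higher and 0.447% lower.

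**Figure D5:**
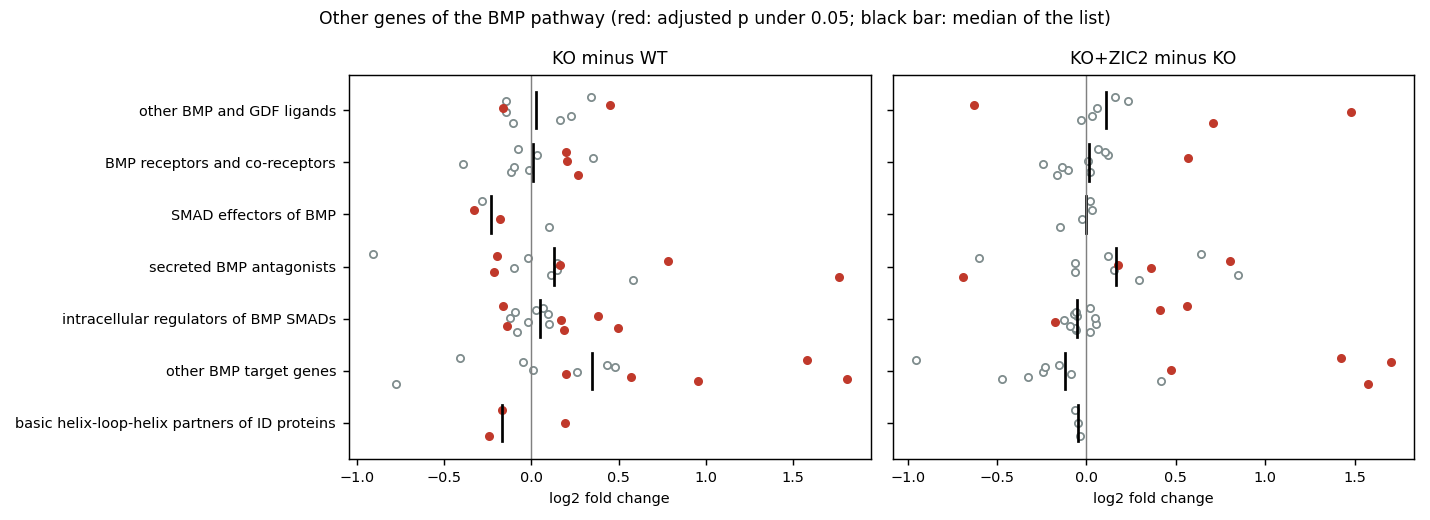
Log2 fold changes (x axis) of the tested genes of 7 lists of the BMP pathway (y axis), in KO minus WT and KO with ZIC2 minus KO; each point is a gene, red where the adjusted p is under 0.05, and the black bar is the list's median. The targets have a median of 0.35 in KO minus WT and -0.12 in KO with ZIC2 minus KO, where 4 of the 12 tested are called higher and none lower.

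Markers of other cell types were measured beside these changes, and their counts in KO against WT stand beside the 38.6% of all genes called there. Fibroblast markers summed to 559 to 605 CPM in KO, 643 to 692 CPM in KO with ZIC2, 513 to 524 CPM in OE and 509 to 521 CPM in WT. Most of the KO and WT sums was THY1, with 344 ± 17.3 CPM in KO and 337 ± 2.62 CPM in WT, not called. COL1A1 was at 111 ± 6.36 CPM in KO, 211 ± 21.3 CPM in KO with ZIC2 and 69.2 ± 2.54 CPM in WT (SD, n = 3). In KO 4 of the 8 tested were higher than in WT and none lower: COL1A1 (0.67, SE 0.06), COL1A2 (0.21, SE 0.05), PDGFRB (0.26, SE 0.07) and TWIST1 (1.13, SE 0.40). TWIST1 stood on 68 counts in all KO libraries and 21 in all WT libraries, with replicates that overlapped. Of the 12 listed, 6 averaged under 1 CPM in KO and 6 in WT, among them DCN and LUM, with 4 and 2 counts over the 3 KO libraries. Trophoblast and amnion markers summed to 33.3 to 35.4 CPM in KO and 25.9 to 27.3 CPM in WT. Of 7 tested, TFAP2C was higher (1.56, SE 0.13) and VTCN1 lower (-1.69, SE 0.53). Of the 13 counted, 7 averaged under 1 CPM in KO and 7 in WT, among them CGA, a placental hormone subunit, with 3 counts over the 3 KO libraries. Primitive streak and mesoderm markers summed to 107 to 126 CPM in KO and 139 to 142 CPM in WT. Most of that sum was KDR, with 99.2 ± 9.88 CPM in KO and 129 ± 1.55 CPM in WT (SD, n = 3). Of 6 tested, 3 were higher, among them WNT3 (0.74, SE 0.14) and PDGFRA (0.52, SE 0.12), and 1 was lower, KDR (-0.37, SE 0.05). The list's median was 0.29. Neuroectoderm markers summed to 519 to 565 CPM in KO and 429.8 to 453 CPM in WT. Here most of the sum was NES, with 465 ± 23.3 CPM in KO and 349 ± 8.73 CPM in WT (SD, n = 3). Of 7 tested, 1 was higher, NES, and 4 were lower, among them DLK1 (-1.20, SE 0.27), with a list median of -0.88. DLK1 stood on 48 counts in all KO libraries and 76 in all WT libraries. The part of these markers in the changes of the BMP genes was not tested.

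The genes whose profile over the 12 libraries was nearest to that of BMP4 were ANXA2, CNN1, S100A10, CSRP1 and TXNRD2. Their root mean square differences of centred log2 CPM were 0.17 to 0.20, against a median of 0.70 over 10742 genes. ANXA2 encodes a phospholipid-binding annexin, S100A10 its binding partner, CNN1 a calponin of smooth muscle, CSRP1 a LIM domain protein and TXNRD2 a mitochondrial thioredoxin reductase. For ID1 the nearest were FRAT2, HCFC1R1, PDPN, SPATA2L and TSTA3, at 0.05 to 0.07, against a median of 0.22. None of the 10 BMP genes was among the 5 nearest to either. This measure depends on the size of the changes, which in KO against WT was 1.55 for BMP4 and next 0.82 for BMP7. SMAD6 averaged under 5 CPM and was not a candidate. The absence therefore does not show that the profiles differ in shape.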

How the data were processed

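Poly(A) RNA of 12 H1 libraries was sequenced. The authors deposited raw counts, whole-number read counts per gene with no normalization, 1 column per library; per the submitters' processing notes, STAR, featureCounts, DESeq2 and the hg19 build were named without versions or order, and per the file headers, the alignment files counted were named unique. The labels do not say that strand was kept. Groups came from the sample titles. Genes passing filterByExpr (15437 of 27130) were fitted with edgeR 4.0.16 (R 4.3.3): TMM factors, quasi-likelihood test, all 12 libraries, group as the only term, 8 residual degrees of freedom, and Benjamini-Hochberg adjustment over all genes in each comparison. A call is an adjusted p under 0.05. Intervals of 95% are from that fit. CPM and RPKM were computed from counts with these factors and the deposited gene length.

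GC content was that of the longest GENCODE 29 transcript with the gene's name or an older symbol (95.2% of tested genes matched); splines with 5 degrees of freedom on GC content and on length gave offsets per library. DESeq2 1.42.0, median-ratio factors, no filter, fits of 2 groups, a replicate block and single libraries left out were also tried. The fit was tested on simulated data. Chi-square tests of pairs of replicates gave 1.37 to 9.82 per gene, and no pair was merged. Promoters were from RefSeq, GRCh38.p14. The rule named all 10 genes, ZNF263 and ZIC2, up to 3 called members with the smallest adjusted p of each of 12 lists in KO against WT and in KO with ZIC2 against KO, and the 5 genes nearest to BMP4 and to ID1 with at least 5 CPM; other names were chosen after their values were seen. The 10 genes and the lists were chosen with earlier results of these data known.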

Additional observations from a re-analysis of the deposited data

How the results depend on the processing

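Of 760 refits of the 10 genes' fold changes under other settings, 689 kept direction and side of the threshold, 62 lost a call, 1 gained one and 8 changed sign; causes were not tested. Sign changes were those of ID3 after the GC correction, to -0.13 in KO against WT (also with the replicate block) and -0.042 in KO with ZIC2 against WT (-0.044 with the block), and of uncalled differences without single libraries: SMAD6 (-0.16 to 0.18, with 0.04 without WT replicate 1) and BMP7 (-0.021 to 0.24) in OE against WT, and ID2 (-0.046 to 0.10) in KO with ZIC2 against KO. The number of the 10 genes called in KO with ZIC2 against KO was 4, but 2 in a fit of those groups alone and 1 to 4 without single libraries (1 without KO with ZIC2 replicate 1, and 2 without its replicate 2 or 3). In KO with ZIC2 against WT it was 9, but 5 by DESeq2, 4 after the GC correction with or without the replicate block, and 5 to 9 without single libraries (5 without WT replicate 3). In KO against WT it was 7 to 9 without single libraries, and in OE against WT 0 throughout. Of the BMP pathway lists, 9 genes instead of 15 were called by DESeq2 in KO with ZIC2 against KO. Without single libraries the lists had 23 to 27, 1 to 2, 10 to 17 and 26 to 35 genes called in KO against WT, OE against WT, KO with ZIC2 against KO and KO with ZIC2 against WT.

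Over all genes, OE against WT gave 118 calls, but 220 without the filter (a fit in which genes kept no spread of their own), 431 with 2 groups only, 249 after the GC correction, 253 with the block added, and 50 to 262 without single libraries (262 without KO replicate 2; 50 to 77 without any OE or WT library). KO with ZIC2 against KO gave 1288, but 1985 after the GC correction (957 higher and 1028 lower, against 771 and 517), 1937 with the block added, and 842 to 1476 without single libraries (842 without KO with ZIC2 replicate 1). The ranges were 4782 to 5968 in KO against WT and 4549 to 6384 in KO with ZIC2 against WT. The labels' replicate numbers did not pair the samples: same-numbered libraries' deviations correlated at -0.11 to 0.11, and no library correlated best with its own number in every group. The replicate block alone ended 1 call of the 10 genes, SMAD6 in KO against WT (0.42, adjusted p = 0.0533). SMAD6, with 137 counts over the WT libraries, sets the limit of depth: its interval in OE against WT was -0.44 to 0.39.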

Other observations

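Differentiation genes outside the BMP lists also differed with ZIC2, with values and no explanation given. Among trophoblast and amnion markers, PGF, a placental growth factor, was at 3.99 ± 0.454 CPM in KO with ZIC2 and 2.19 ± 0.376 CPM in KO, IGFBP3, a carrier of insulin-like growth factors, at 18.2 ± 1.28 CPM in KO with ZIC2 and 13.2 ± 0.859 CPM in KO, and TFAP2C at 6.23 ± 0.540 CPM in KO with ZIC2 and 8.69 ± 0.127 CPM in KO (SD, n = 3). VTCN1 was higher in KO with ZIC2 than in KO by 2.47 (SE 0.47), on 38 and 10 counts. COL1A1 was higher in KO with ZIC2 than in KO by 0.94 (SE 0.06) and COL1A2 by 0.25 (SE 0.05), and THY1 was lower by 0.19 (SE 0.04). In neuroectoderm, ZNF521 was lower in KO than in WT by 0.88 (SE 0.09) and higher in KO with ZIC2 than in KO by 0.57 (SE 0.09), while NES was higher in KO by 0.41 (SE 0.04). OTX2 was higher in KO with ZIC2 than in KO by 0.15 (SE 0.05), and the mesoderm marker KDR was lower by 0.24 (SE 0.06).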
